A study of Mus musculus with 18 samples.

Results

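The mouse mitochondrial genome carries 37 genes, and all 37 were present in the count tables among 57010 gene identifiers. They were taken as every row placed on chrM: 13 protein genes, 2 rRNA genes and 22 tRNA genes. RNA was measured in ovary and uterus of mice aged 20 to 25 weeks, strain C57B6/J as given by the labels, in 3 genotypes with 3 libraries per tissue and genotype: ARE-/-, ARE+/- and WT. ARE denotes the AU-rich element of the Ifng transcript, a stretch of the 3′ untranslated region that shortens the life of the mRNA of interferon gamma and that this mouse line is known to lack in all its cells. The labels give ARE without an explanation, and they do not say which ovary and which uterus came from one mouse, whether tissues of several animals were pooled, or at which stage of the cycle they were taken.

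The mitochondrial genome is a small circle present in many copies per cell. Both of its strands are transcribed into long precursors, which are cut apart largely at the tRNAs that lie between the other genes, so the abundance of each mRNA also depends on its own stability. Its proteins are core subunits of complexes I, III, IV and V of oxidative phosphorylation, whose remaining subunits come from nuclear genes, and its 2 rRNAs and 22 tRNAs serve the translation of those proteins inside the organelle. In the ovary, mitochondria also house the first step of steroid synthesis, the side-chain cleavage of cholesterol.

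Of the genes, 12 proteins, both rRNAs and 14 tRNAs lie on the plus strand, and mt-Nd6 and 8 tRNAs on the minus strand. The tRNA genes on which the results turn are shown here from 5′ to 3′ in the sense of the gene, in DNA letters with the anticodon in capitals. The sequences come from the GENCODE M21 transcripts on GRCm38, in which all 37 genes have the same start, end and strand as in the count tables. The first 3 adjoin each other between mt-Nd4 and mt-Nd5, and were those with the steepest falls in ovary. The next 2 also fell there, and mt-Ts1 had the highest counts of any tRNA gene. mt-Tp was the only gene of the 37 whose ovary and uterus libraries did not overlap. It was lower in ovary, a separation in this direction that 3.18% of all genes tested showed.
mt-Th, the histidine tRNA, chrM:11546-11612, plus strand: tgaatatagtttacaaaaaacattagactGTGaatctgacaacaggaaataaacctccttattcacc
mt-Ts2, a serine tRNA, chrM:11613-11671, plus strand: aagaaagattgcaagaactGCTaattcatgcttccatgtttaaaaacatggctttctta
mt-Tl2, a leucine tRNA, chrM:11671-11741, plus strand: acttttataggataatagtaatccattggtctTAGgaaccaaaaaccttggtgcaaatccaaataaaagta
mt-Te, the glutamate tRNA, chrM:14071-14139, minus strand: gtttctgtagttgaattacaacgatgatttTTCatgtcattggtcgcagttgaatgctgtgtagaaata
mt-Tl1, a leucine tRNA, chrM:2676-2750, plus strand: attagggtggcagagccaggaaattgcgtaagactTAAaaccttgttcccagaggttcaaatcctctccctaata
mt-Ts1, a serine tRNA, chrM:6870-6938, minus strand: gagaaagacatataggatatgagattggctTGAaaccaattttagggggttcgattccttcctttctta
mt-Tp, the proline tRNA, chrM:15356-15422, minus strand: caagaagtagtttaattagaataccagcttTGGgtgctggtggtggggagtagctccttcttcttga

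Each library held between 33185496 and 49720354 counts. Ifng, the gene whose element is deleted, had 51, 38 and 50 counts in ARE-/-, 18, 10 and 28 in ARE+/- and 4, 0 and 4 in WT ovaries, and 96, 130 and 56 counts in ARE-/-, 58, 36 and 70 in ARE+/- and 4, 6 and 0 in WT uteri. Every mutant library held more than every WT library of its tissue, and the ARE-/- and ARE+/- ranges were apart in ovary and overlapped in uterus. Of the chrM counts, protein genes took a median of 96.8% over the 18 libraries, tRNA genes 2.11% and rRNA genes 1.02%. In the tRNA class mt-Ts1 alone held 67.7% of the counts and mt-Te 16.9%. Libraries were of total RNA, and whether rRNA was depleted is not given in the sources used here. The rRNA values below therefore describe these libraries and cannot be read as the abundance of rRNA in the tissue. The 2 tRNA genes with the fewest counts, mt-Tf and mt-Tv, had at most 17 counts in a library and did not pass the filter on low counts within a tissue, so 35 of the 37 were tested there.

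Some counts are shared by construction. Reads that matched several places or overlapped several genes were counted for each of them, and strand was not used. Of the 37 genes, 16 overlap a neighbour, and a tRNA of about 70 bases is shorter than the span of a read pair, so reads of an unprocessed precursor or of the adjacent mRNA can count for the tRNA. mt-Ts1 overlaps the end of mt-Co1 on the opposite strand, and mt-Te adjoins mt-Nd6. In addition, 7 of the 13 protein genes have a nuclear copy on chromosome 1 of at least 98% identity over at least 60 bases: mt-Co1, mt-Co2, mt-Atp6, mt-Co3, mt-Nd3, mt-Nd4l and mt-Nd4. The copies of mt-Co2, mt-Atp6, mt-Co3 and mt-Nd4l carried between 99.5 and 101 counts per 100 of the chrM gene in every library, so chrM and nuclear origin cannot be told apart for these genes. The copy of mt-Nd3, Gm28438, carried between 104 and 107 counts per 100 of mt-Nd3 in every library. The same limit therefore holds for mt-Nd3. In ovary ARE-/- against WT Gm28438 had a log2 fold change of -0.92, beside -0.90 for mt-Nd3 itself.

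Protein genes took 2.71, 3.23 and 2.83% of all counts in the ARE-/- ovaries, 3.53, 3.23 and 3.31% in the ARE+/- ovaries, and 4.02, 4.39 and 3.74% in the WT ovaries. Every library of both mutant genotypes lay below every WT library. The means were 2.92 ± 0.271% in ARE-/-, 3.36 ± 0.154% in ARE+/- and 4.05 ± 0.327% in WT (SD, n = 3 each), a difference of -1.13 percentage points for ARE-/- and -0.692 for ARE+/- against WT. The tRNA class averaged 0.0569 ± 0.0102% in ARE-/-, 0.0599 ± 0.00443% in ARE+/- and 0.0806 ± 0.0127% in WT ovaries. The rRNA class averaged 0.0400 ± 0.0125% in ARE-/-, 0.0341 ± 0.000874% in ARE+/- and 0.0430 ± 0.00231% in WT ovaries, and the ARE-/- libraries spread on both sides of WT. In uterus the protein share was 4.46, 3.44 and 2.90% in ARE-/-, 3.54, 3.47 and 3.39% in ARE+/- and 3.01, 3.45 and 3.61% in WT, and the genotypes overlapped. These sums carry no test.

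**Figure D1:**
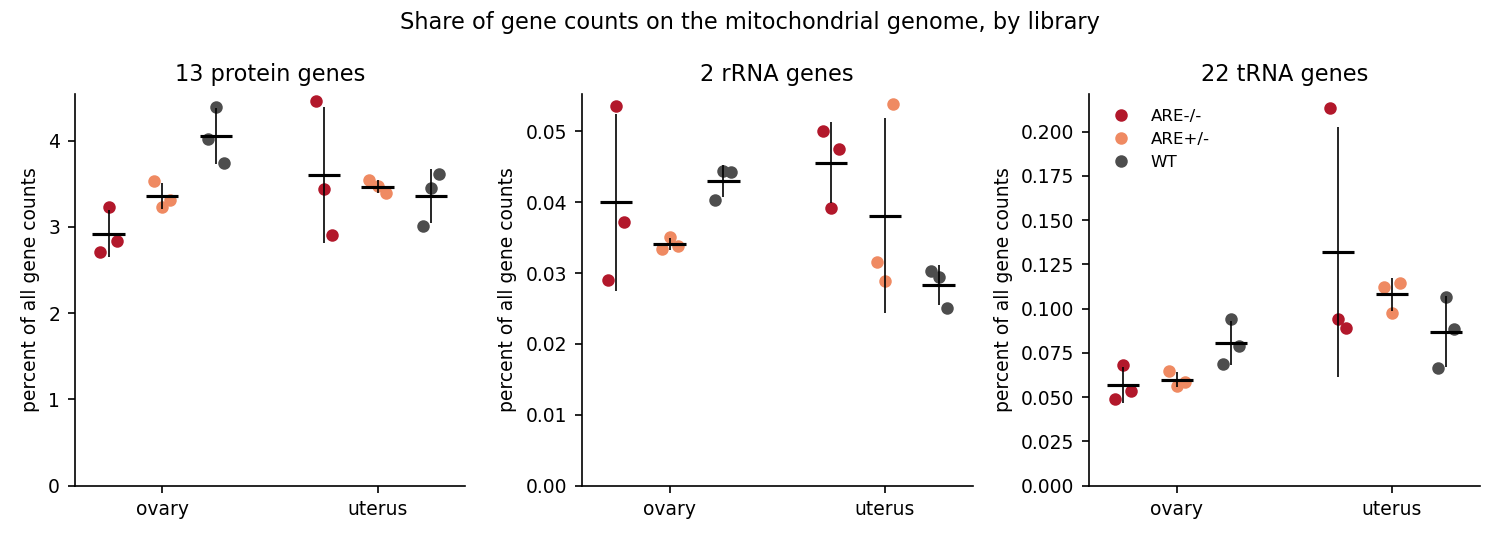
Percent of all gene counts on the 13 protein, 2 rRNA and 22 tRNA genes of the mitochondrial genome in each of 18 libraries, by tissue and genotype; points are libraries, horizontal bars means and vertical lines SD (n = 3). The 3 ARE-/- ovaries lie at 2.71 to 3.23% of counts on protein genes, below the 3.74 to 4.39% of WT ovaries, and 1 ARE-/- uterus stands high at 4.46% and, for tRNA genes, at 0.213%.

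Per kilobase of gene, the ovary levels fell into tiers. In WT ovaries mt-Atp6 and mt-Atp8, subunits of the ATP synthase, and mt-Co1, the catalytic subunit of cytochrome c oxidase, stood highest at 7010 ± 733, 6600 ± 915 and 6940 ± 641 CPM (counts scaled to equal library size) per kilobase, and did not differ beyond their spread. mt-Co2 at 5270 ± 503 and mt-Co3 at 4630 ± 359 CPM per kilobase followed, also with overlapping libraries. A gap separated these 5 from mt-Cytb, the complex III subunit, at 3100 ± 147 CPM per kilobase, which overlapped mt-Nd4l at 2950 ± 289. Lowest of the 13 were mt-Nd5 at 1300 ± 90.1 and mt-Nd3 at 770 ± 53.1 CPM per kilobase, each apart from its neighbours in the order. In ARE-/- ovaries mt-Nd3, at 413 ± 52.2, and mt-Nd5, at 769 ± 72.1 CPM per kilobase, were again the lowest, and mt-Co1, at 5950 ± 756, stood highest and apart from mt-Atp6 at 4650 ± 527.

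In ovary, ARE-/- libraries had lower levels of most mitochondrial mRNAs than WT libraries. Of the 35 genes tested, 15 fell and 0 rose at a Benjamini-Hochberg adjusted p under 0.05 over the 24457 genes tested (edgeR quasi-likelihood test), where 4.15% of all genes fell and 6.31% rose (10.5% in all). Of the 13 protein genes 10 fell, with a median log2 fold change of -0.58 over the class, beside 0.02 over all genes tested. For 12 of the 13 the ARE-/- and WT libraries did not overlap, a pattern that 14.5% of all genes showed in this direction. These are bulk tissues, in which fewer cells rich in a transcript and less of the transcript per cell cannot be told apart. The count of 15 was 8 without WT replicate 1, and it was 11 to 18 under every other alternative except the replicate block.

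Complex I, the NADH dehydrogenase, takes 7 of its core subunits from the mitochondrial genome, and all 7 genes fell. The steepest was mt-Nd3, with 130.5, 164.4 and 136.0 CPM in ARE-/- ovaries, against 274.6, 282.2 and 247.1 CPM in WT ovaries. No ARE-/- library came near the lowest WT library, and the log2 fold change was -0.90 (SE 0.13, adjusted p = 0.0036). mt-Nd5, the largest of the mitochondrially encoded proteins, had 1513, 1440 and 1258 CPM in ARE-/- and 2459, 2481 and 2186 CPM in WT ovaries, a log2 fold change of -0.76 (SE 0.10, adjusted p = 0.0028). mt-Nd4l had 590.6, 541.5 and 491.4 CPM in ARE-/- and 859.2, 970.3 and 801.2 CPM in WT ovaries, with a log2 fold change of -0.70 (SE 0.10, adjusted p = 0.0036). The groups were again apart for both genes.

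mt-Nd6, the only protein gene on the minus strand, had 547.4, 594.6 and 524.8 CPM in ARE-/- and 851.9, 938.6 and 787.2 CPM in WT ovaries, a log2 fold change of -0.63 (SE 0.10, adjusted p = 0.0064). The fall was thus not restricted to genes of the plus strand, within the limit that these counts do not use strand. mt-Nd2 fell by 0.63 on the log2 scale (SE 0.14, adjusted p = 0.023), mt-Nd4 by 0.53 (SE 0.09, adjusted p = 0.007) and mt-Nd1 by 0.49 (SE 0.11, adjusted p = 0.020). Their levels were 992.3, 1265 and 1201 CPM for mt-Nd2 in ARE-/- against 1837, 2051 and 1474 CPM in WT, and 2524, 2699 and 2526 CPM for mt-Nd4 in ARE-/- against 3626, 4122 and 3440 CPM in WT. mt-Nd1 had 1735, 2061 and 1805 CPM in ARE-/- and 2843, 2684 and 2336 CPM in WT ovaries. In none of the 3 genes did the groups overlap. Without WT replicate 1, mt-Nd1 (adjusted p = 0.078) and mt-Nd2 (adjusted p = 0.079) no longer passed. The same held without ARE-/- replicate 2, with adjusted p of 0.064 for mt-Nd1 and 0.072 for mt-Nd2, and for mt-Nd2 also without WT replicate 2 (adjusted p = 0.065).

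Cytochrome b, mt-Cytb, which carries electrons through complex III, had 2551, 2662 and 2411 CPM in ARE-/- and 3565, 3700 and 3367 CPM in WT ovaries. Its spread within groups was the smallest relative to its mean of the 13 in WT ovaries, at 4.74%, and the log2 fold change was -0.48 (SE 0.08, adjusted p = 0.0066). Both ATP synthase genes fell. mt-Atp6 had 2873, 3568 and 3068 CPM in ARE-/- and 4960, 5158 and 4211 CPM in WT ovaries (log2 fold change -0.59, SE 0.12, adjusted p = 0.013), and the overlapping mt-Atp8 had 841.8, 990.9 and 871.2 CPM in ARE-/- and 1405, 1496 and 1137 CPM in WT ovaries (log2 fold change -0.58, SE 0.12, adjusted p = 0.017). Both calls were lost without WT replicate 1, with adjusted p of 0.055 for mt-Atp6 and 0.067 for mt-Atp8, the log2 fold changes being -0.59 and -0.57. mt-Atp8 was also lost without ARE-/- replicate 2 (adjusted p = 0.060).

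None of the 3 cytochrome c oxidase genes, the core of complex IV, passed the test. mt-Co1 had 8390, 10530 and 8659 CPM in ARE-/- and 10470, 11810 and 9873 CPM in WT ovaries, with overlapping groups and a log2 fold change of -0.22 (SE 0.11, adjusted p = 0.23). mt-Co2 had a log2 fold change of -0.36 (SE 0.11, adjusted p = 0.069) and mt-Co3 one of -0.35 (SE 0.11, adjusted p = 0.076). For both, all 3 ARE-/- libraries lay below all 3 WT libraries. The adjusted p of mt-Co2 lay between 0.032 and 0.34 and that of mt-Co3 between 0.024 and 0.38 under the alternatives, so these genes stand at the threshold rather than apart from the others. Over the complexes, log2 fold changes ranged between -0.90 and -0.49 in complex I, between -0.59 and -0.58 in complex V and between -0.36 and -0.22 in complex IV. Whether the complexes differed from each other was not tested.

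**Figure D2:**
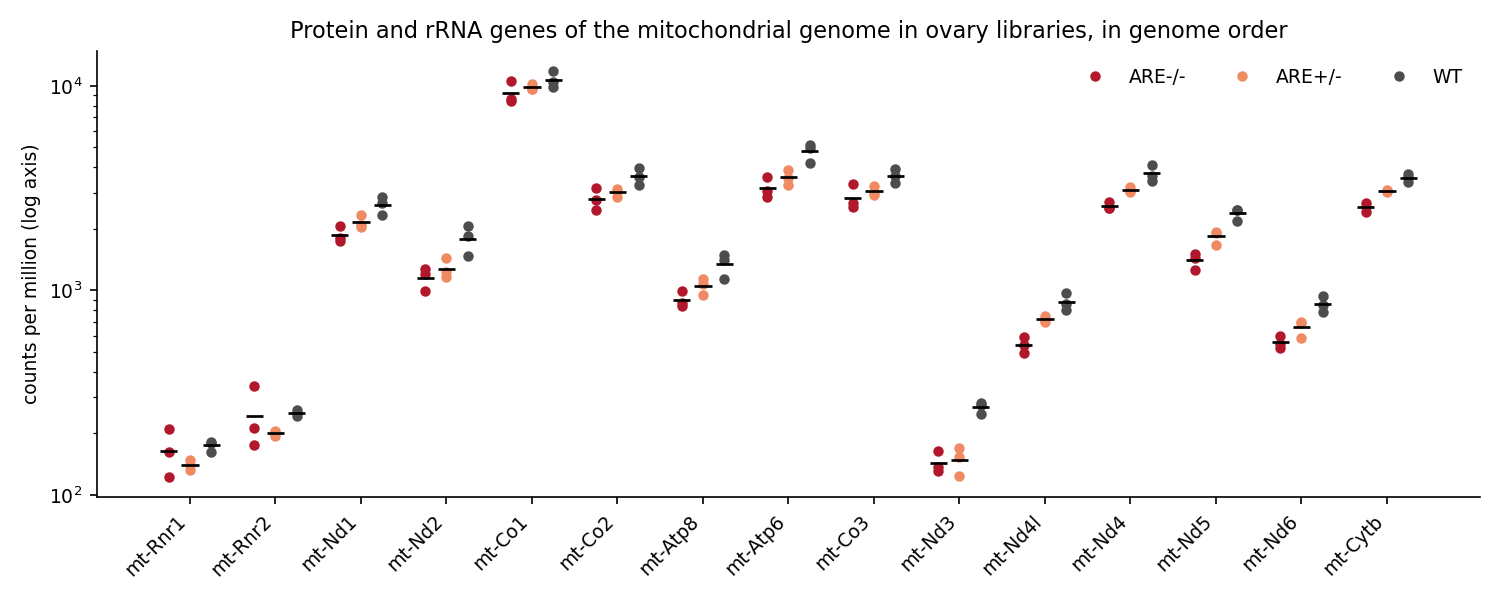
CPM on a log axis for the 13 protein and 2 rRNA genes in each ovary library, in genome order, with ARE-/- left, ARE+/- in the middle and WT right within each gene; horizontal bars are means (n = 3). For all 13 protein genes the ARE-/- mean is lowest, the ARE+/- mean between and the WT mean highest, and mt-Nd3 has ARE-/- and ARE+/- side by side below WT at 247.1 to 282.2 CPM.

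The 2 rRNA genes gave no call in the same comparison. mt-Rnr1, the rRNA of the small subunit, had 122.5, 209.1 and 161.9 CPM in ARE-/- and 162.2, 179.0 and 181.7 CPM in WT ovaries, and mt-Rnr2, of the large subunit, had 175.3, 339.2 and 210.9 CPM in ARE-/- and 242.6, 260.8 and 249.8 CPM in WT ovaries. ARE-/- replicate 3 stood above all WT libraries and the other 2 below them. The log2 fold changes were -0.08 (SE 0.16, adjusted p = 0.79) for mt-Rnr1 and -0.05 (SE 0.20, adjusted p = 0.90) for mt-Rnr2. They turned positive without ARE-/- replicate 2, at 0.08 and 0.12, and without replicate 3 mt-Rnr2 passed the test at -0.40 (adjusted p = 0.043), so 1 library decides the rRNA values and they carry no direction.

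Among the 20 tRNA genes tested, 5 fell and 0 rose in ARE-/- ovaries, with negative values for all 20 and a class median of -0.50. The trio between mt-Nd4 and mt-Nd5 moved most. mt-Th had 87, 135 and 79 counts in ARE-/- and 369, 307 and 286 counts in WT ovaries, which is 2.18, 3.43 and 1.96 CPM in ARE-/- and 9.44, 7.82 and 7.18 CPM in WT (log2 fold change -1.69, SE 0.30, adjusted p = 0.0081). mt-Ts2 had 88, 142 and 96 counts in ARE-/- and 368, 294 and 267 in WT ovaries (log2 fold change -1.52, SE 0.29, adjusted p = 0.011). mt-Tl2 had 117, 224 and 155 counts in ARE-/- and 552, 408 and 337 in WT ovaries (log2 fold change -1.40, SE 0.28, adjusted p = 0.014). These 3 are neighbours shorter than a read pair, so 1 read pair can count for several of them, and they are not 3 independent results. How many reads they share was not measured. Without WT replicate 1 mt-Th held (adjusted p = 0.041), while mt-Ts2 (adjusted p = 0.055) and mt-Tl2 (adjusted p = 0.064) did not.

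mt-Te, beside mt-Nd6 on the minus strand, had 85.08, 92.05 and 79.91 CPM in ARE-/- and 140.7, 169.2 and 140.8 CPM in WT ovaries, a log2 fold change of -0.81 (SE 0.11, adjusted p = 0.0022). mt-Tl1, which follows mt-Rnr2 in the genome, had 10.31, 12.99 and 13.22 CPM in ARE-/- and 17.57, 19.38 and 16.46 CPM in WT ovaries (log2 fold change -0.55, SE 0.15, adjusted p = 0.040). The groups were apart for both, but the call of mt-Tl1 was lost under 8 of the 19 alternatives, at an adjusted p of up to 0.16. mt-Ts1, the most abundant, gave -0.36 (SE 0.16, adjusted p = 0.17), with 329.2, 474.5 and 355.9 CPM in ARE-/- and 416.6, 579.7 and 493.5 CPM in WT ovaries. mt-Tp showed next to no difference, with 15.28, 15.63 and 13.22 CPM in ARE-/- and 13.76, 17.80 and 13.62 CPM in WT ovaries (log2 fold change -0.03, SE 0.14, adjusted p = 0.91). mt-Tc and mt-Ty, 2 more of the 5 most abundant in ovary, gave -0.25 (SE 0.31, adjusted p = 0.67) and -0.33 (SE 0.29, adjusted p = 0.53). They lie beside mt-Ta and mt-Tn, and WT replicate 2 was the highest ovary library for all 4.

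**Figure D3:**
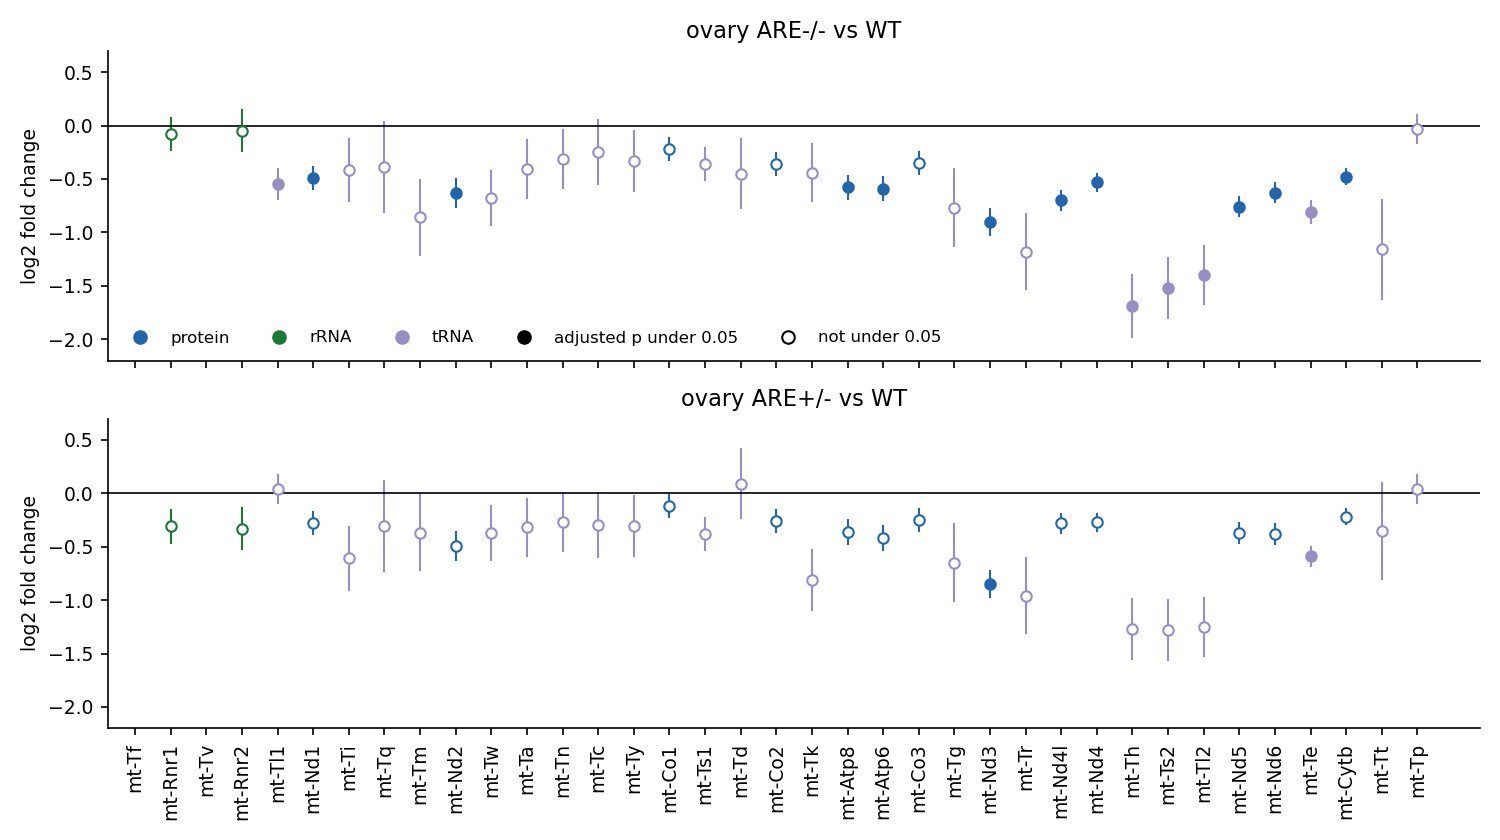
Log2 fold changes with SE in ovary for the 35 mitochondrial genes tested, in genome order, for ARE-/- against WT (upper panel) and ARE+/- against WT (lower panel); filled points have an adjusted p under 0.05. In the upper panel every value is below 0 and mt-Th, mt-Ts2 and mt-Tl2 lie lowest, at -1.69, -1.52 and -1.40, while both rRNA genes and mt-Tp lie within 0.08 of 0.

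In ARE+/- ovaries against WT, 2 of the 35 genes fell, mt-Nd3 and mt-Te, where 0.356% of all genes tested fell and 1.35% rose (1.71% in all). mt-Nd3 had 169.0, 123.1 and 152.5 CPM in ARE+/- ovaries and the WT values above, with every ARE+/- library below every WT library (log2 fold change -0.85, SE 0.13, adjusted p = 0.015). mt-Te had 108.3, 90.99 and 99.58 CPM in ARE+/- ovaries and a log2 fold change of -0.59 (SE 0.10, adjusted p = 0.029). Libraries did not overlap, with ARE+/- lower, for 20 of the 35 genes, among them 11 of 13 protein genes, both rRNAs and 7 tRNAs, a pattern of 11.3% of all genes. The median log2 fold change of the protein class was -0.28, beside 0.02 over all genes, and 11 of the 13 had an unadjusted p under 0.05, where 15.7% of all genes did. The number of genes with an adjusted p under 0.05, 2 in the full fit, depended on single libraries. Without WT replicate 1 or WT replicate 2 it was 0, and without WT replicate 3 or any 1 ARE+/- library it was 1. Without ARE-/- replicate 3 or ARE-/- replicate 6, which share only the estimate of the spread, it was 5. mt-Nd3 was the gene that kept its call in all of these but the first 2, with adjusted p of 0.077 and 0.052 there. Comparisons with WT share the same 3 WT libraries in both mutant genotypes and are not independent.

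The trio mt-Th, mt-Ts2 and mt-Tl2 had log2 fold changes of -1.27 (SE 0.29, adjusted p = 0.064), -1.28 (SE 0.29, adjusted p = 0.060) and -1.25 (SE 0.28, adjusted p = 0.059) in ARE+/- ovaries. mt-Th had 178, 126 and 109 counts there, every library below the 286 to 369 counts of WT. Complex I genes other than mt-Nd3 lay between -0.49 (mt-Nd2, SE 0.14, adjusted p = 0.13) and -0.27 (mt-Nd4, SE 0.09, adjusted p = 0.18). mt-Atp6 had -0.42 (SE 0.12, adjusted p = 0.11) and mt-Cytb -0.22 (SE 0.08, adjusted p = 0.22), and complex IV lay between -0.26 and -0.12. mt-Rnr1 gave -0.31 (SE 0.16, adjusted p = 0.39) and mt-Rnr2 -0.33 (SE 0.20, adjusted p = 0.48).

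ARE-/- and ARE+/- ovaries were set against each other in a comparison that does not use the WT libraries for its means. No mitochondrial gene passed (edgeR quasi-likelihood test, lowest adjusted p 0.36), 6 of 35 had an unadjusted p under 0.05 where 8.39% of all genes did, DESeq2 called 1, and 0.0491% of all genes tested passed. All 13 protein genes had negative values, with a median of -0.21, and the group means of all 13 were lowest in ARE-/-, between in ARE+/- and highest in WT. mt-Nd4l had 590.6, 541.5 and 491.4 CPM in ARE-/- and 751.9, 711.9 and 697.7 CPM in ARE+/- ovaries, without overlap (log2 fold change -0.41, SE 0.10, adjusted p = 0.36). mt-Nd5, mt-Cytb and mt-Nd4 also did not overlap, with -0.39 (SE 0.10, adjusted p = 0.40), -0.26 (SE 0.08, adjusted p = 0.47) and -0.26 (SE 0.09, adjusted p = 0.53). mt-Nd3 differed from them in its values: -0.05 (SE 0.13, adjusted p = 0.96), with overlapping libraries. Libraries of ARE-/- lay below those of ARE+/- for 6 of the 35 genes, a pattern of 6.67% of all genes.

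Ratios of counts within a library do not depend on its scaling. They use the same counts as the log2 fold changes above, where mt-Nd3 (-0.90) fell more than mt-Co3 (-0.35) in ARE-/- ovaries. Lower ratios follow from such values and are no separate support for them. How often ratios of other gene pairs were apart was not measured. In ovary mt-Nd3 had 5.13, 4.99 and 5.10 counts per 100 of mt-Co3, the protein gene before it, in ARE-/-, 5.21, 4.20 and 5.09 in ARE+/-, and 7.56, 7.23 and 7.39 in WT. Both mutant genotypes were apart from WT and overlapped each other. The trio mt-Th, mt-Ts2 and mt-Tl2 together had 0.290, 0.472 and 0.324 counts per 100 of mt-Nd4 in ARE-/-, 0.453, 0.308 and 0.323 in ARE+/-, and 0.909, 0.623 and 0.649 in WT ovaries, again with both mutant groups below WT. mt-Nd5 per 100 mt-Co1 was 18.0, 13.7 and 14.5 in ARE-/-, 19.0, 17.2 and 19.7 in ARE+/-, and 23.5, 21.0 and 22.1 in WT ovaries. The mutant groups lay below WT, and ARE-/- overlapped ARE+/-. mt-Nd4l per 100 mt-Nd4 was 23.4, 20.1 and 19.5 in ARE-/-, 23.5, 23.4 and 23.0 in ARE+/- and 23.7, 23.5 and 23.3 in WT ovaries, with 2 ARE-/- libraries lower and the other beside the rest. The rRNA counts per 100 protein counts were 1.07, 1.66 and 1.31 in ARE-/-, 0.947, 1.09 and 1.02 in ARE+/- and 1.00, 1.01 and 1.18 in WT ovaries, which overlapped.

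**Figure D4:**
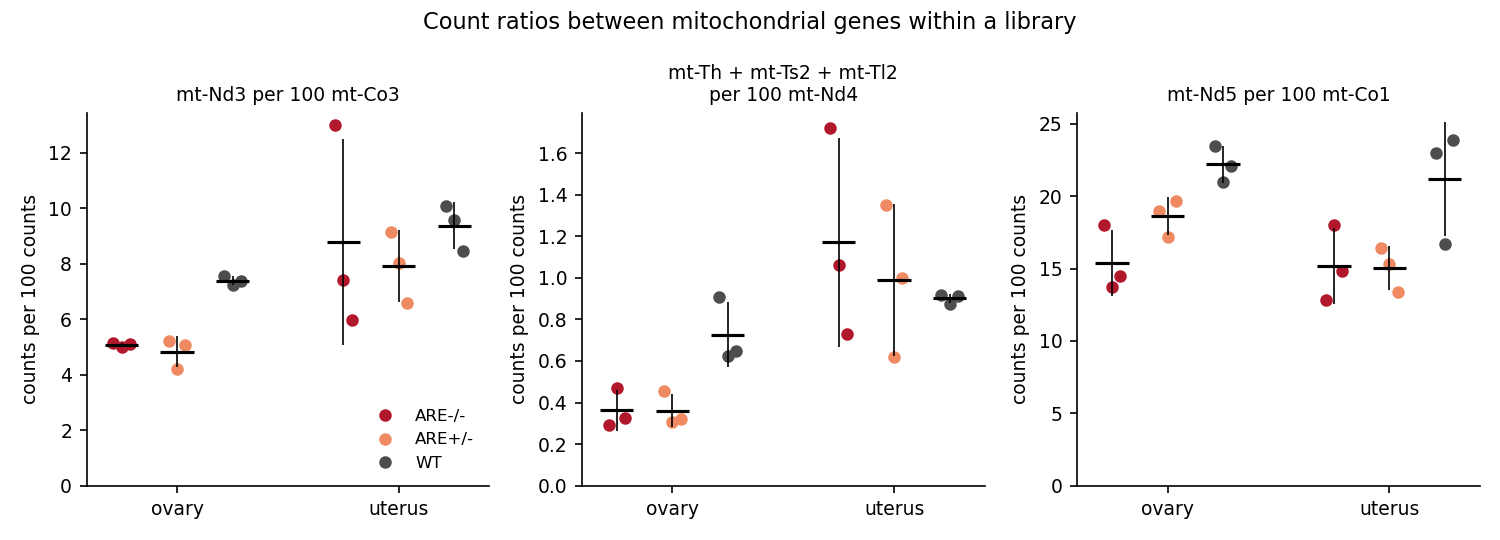
Count ratios between mitochondrial genes within each library, by tissue and genotype; points are libraries, horizontal bars means and vertical lines SD (n = 3). In ovary mt-Nd3 per 100 mt-Co3 lies at 4.20 to 5.21 in the 6 mutant libraries and at 7.23 to 7.56 in WT, while in uterus the genotypes overlap and 1 ARE-/- library lies above all others.

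The nuclear genes that work with the mitochondrial ones mostly did not pass in ARE-/- ovaries, where 6.31% of all genes rose and 4.15% fell. Of 36 nuclear complex I subunits 3 rose and 0 fell, with a median log2 fold change of 0.09: Ndufa10 (0.43, SE 0.08, adjusted p = 0.0088), Ndufs7 (0.38, SE 0.08, adjusted p = 0.020) and Ndufv3 (0.45, SE 0.11, adjusted p = 0.032). Medians were 0.08 over 4 complex II genes, 0.02 over 9 nuclear complex III genes, -0.03 over 12 nuclear complex IV genes and 0.16 over 14 nuclear complex V genes, and of these 39 genes Cox4i1 (0.34, SE 0.09, adjusted p = 0.033) and Atp5o (0.34, SE 0.09, adjusted p = 0.034) rose and 0 fell. Of 15 genes for the maintenance and transcription of mitochondrial DNA and 19 for the processing and stability of mitochondrial RNA, 0 passed by the edgeR quasi-likelihood test, with medians of 0.01 and 0.06. Of 48 genes of the mitochondrial ribosome 1 rose, Mrpl28 (0.56, SE 0.10, adjusted p = 0.0084), with a median of 0.08. Of 17 mitochondrial tRNA synthetases 2 fell, Lars2 (-0.93, SE 0.17, adjusted p = 0.011), which charges the leucine tRNAs, and Mars2 (-0.77, SE 0.17, adjusted p = 0.020), which charges the methionine tRNA, and the median was 0.03. Of 9 regulators of mitochondrial biogenesis 0 passed, with a median of -0.06.

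Marker lists of other cell types and tissues also differed between the ovaries. The summed level of 10 steroidogenic genes, which mark theca and luteal cells, was 4350, 4180 and 11300 CPM in ARE-/-, 8670, 13800 and 5100 CPM in ARE+/- and 13300, 16300 and 10200 CPM in WT ovaries. All 10 had negative log2 fold changes in ARE-/- against WT, with a median of -1.16, and 0 passed the edgeR quasi-likelihood test. Of 8 granulosa and oocyte markers 0 passed, with a median of -0.06. All 9 T cell markers rose, with a median of 3.43 and a summed level of 45.8 to 106 CPM in ARE-/- against 9.67 to 11.4 CPM in WT, and 6 of 8 macrophage markers rose, with sums of 822 to 1710 CPM in ARE-/- against 409 to 529 CPM in WT. The 9 adipocyte markers summed to 1400, 2130 and 45.5 CPM in ARE-/-, 1590, 223 and 814 CPM in ARE+/- and 197, 162 and 121 CPM in WT ovaries, with 0 called by edgeR. The 8 uterus markers summed to 622 to 657 CPM in ARE-/- and 538 to 578 CPM in ARE+/- ovaries, against 197 to 339 CPM in WT ovaries, without overlap with WT. In ARE-/- against WT all 8 were positive with a median of 0.75, and 2 rose, Ltf (1.49, SE 0.28, adjusted p = 0.015) and Emx2 (0.50, SE 0.10, adjusted p = 0.015). Of 8 smooth muscle markers, all positive with a median of 0.60, 1 rose, Lmod1 (0.72, SE 0.18, adjusted p = 0.032), and their sums overlapped at 2730 to 5400 CPM in ARE-/- and 2590 to 2960 CPM in WT. Of 5 erythroid markers tested 0 passed by edgeR, with a median of 1.15 and sums of 375 to 847 CPM in ARE-/- against up to 329 CPM in WT. None of these lists had a marker at 0 in all libraries of an ovary group. Of 5 nuclear-retained RNAs 2 fell: Malat1 (-1.28, SE 0.18, adjusted p = 0.0030) and Neat1 (-0.67, SE 0.15, adjusted p = 0.020). The other 3 lay between -0.38 (Kcnq1ot1) and 0.09 (Snhg11), and the sum of the 5 was 1160 to 1320 CPM in ARE-/-, 1350 to 1740 CPM in ARE+/- and 1980 to 2450 CPM in WT ovaries. The part of these markers in the mitochondrial result was not tested. ARE-/- replicate 6, a library titled backup, had steroidogenic markers within the WT range and adipocyte markers below it. Its T cell and macrophage markers, at 45.8 and 822 CPM, lay above the WT ranges. It had 136.0 CPM of mt-Nd3 and 1258 CPM of mt-Nd5. The other 2 ARE-/- ovaries had 130.5 and 164.4 CPM of mt-Nd3 and 1513 and 1440 CPM of mt-Nd5. This is 1 library, and the part of its markers in these levels was not tested.

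In uterus no mitochondrial gene passed in any of the 3 comparisons (edgeR quasi-likelihood test and DESeq2), where 3.75% of all 24277 genes tested passed for ARE-/- against WT, 1.14% for ARE+/- against WT and 0% for ARE-/- against ARE+/-. An unadjusted p under 0.05 was found for 4, 0 and 1 of the 35 genes in these comparisons, where 19.9, 14.1 and 4.87% of all genes had one. The counts over all genes rested on single libraries: the 911 genes called for ARE-/- against WT became 192 to 1322 when 1 library was left out, lowest without WT replicate 3 and 203 without WT replicate 1. The 276 called for ARE+/- against WT became 0 without WT replicate 3, 4 without WT replicate 1 and 733 without ARE-/- replicate 1. The median log2 fold change of the protein class was 0.15 for ARE-/- against WT (range -0.55 to 0.46, lowest adjusted p 0.21), -0.11 for ARE+/- against WT (range -0.49 to 0.12, lowest adjusted p 0.36) and 0.21 for ARE-/- against ARE+/- (range -0.06 to 0.61, lowest adjusted p 0.99). The 2 rRNA genes had the values 0.83 (mt-Rnr1, SE 0.27, adjusted p = 0.13) and 0.73 (mt-Rnr2, adjusted p = 0.21) in ARE-/- against WT, and their libraries did not overlap: mt-Rnr1 had 271.4, 187.5 and 232.8 CPM in ARE-/- and 123.3, 141.2 and 124.2 CPM in WT uteri. In the direction of a rise, 12.5% of all genes showed such a separation, and 3 of the 35 mitochondrial genes did.

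The uterine ARE-/- replicate 1 stood apart, and the comparisons above were as empty of calls without it. Among the 9 uterine libraries it was the highest for 11 of 13 protein genes, 1 of 2 rRNA genes and 21 of 22 tRNA genes, and the lowest for mt-Nd4l. mt-Nd3 had 885.6 CPM in that library, against 184.3 to 357.2 CPM in the other 8, and mt-Ts1 had 1838 CPM against 421.8 to 836.9. mt-Nd4l, however, had 347.1 CPM there and 403.6 to 764.2 CPM in the others. The same library had the lowest scaling factor (0.838 by the trimmed mean of M values), and its summed markers were 16800 CPM for 9 adipocyte genes, 7270 CPM for 6 erythroid genes and 411 CPM for the 10 steroidogenic genes, where the other 8 uteri had up to 1740, 1300 and 141 CPM. It also stood apart for 8 smooth muscle genes, at 19300 CPM against at most 8820, and for the nuclear partners of the mitochondrial genes, at 3760 CPM against at most 1940 for complex I, 2850 against at most 1400 for complex IV and 4360 against at most 2710 for complex V. The part of these markers in its mitochondrial levels was not tested. Apart from that library, mt-Nd3 had 251.1 and 184.3 CPM in ARE-/-, 340.3, 282.5 and 245.0 in ARE+/- and 304.4, 357.2 and 300.6 CPM in WT uteri.

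The nuclear copies also give the position of reads within 2 genes. The copy of mt-Co1, Gm29216, matches its bases 1063 to 1545, the last 483 of the gene, and received 25.2 to 28.5 counts per 100 of mt-Co1 in ARE-/-, 24.6 to 25.2 in ARE+/- and 24.6 to 26.2 in WT ovaries. In uteri it received 29.1 to 50.6 in ARE-/-, 32.4 to 32.7 in ARE+/- and 26.6 to 31.0 in WT, the value of 50.6 being that of ARE-/- replicate 1. The copy of mt-Nd4, Gm28439, matches its first 876 bases and received 33.5 to 49.7 counts per 100 of mt-Nd4 in ARE-/-, 44.4 to 45.7 in ARE+/- and 45.5 to 52.4 in WT uteri. In ovaries it received 51.4 to 53.5 in ARE-/-, 54.0 to 54.6 in ARE+/- and 52.5 to 54.5 in WT. Where reads fell along these genes thus varied most among the ARE-/- uteri, with 50.6 and 33.5 both from replicate 1. For either copy the ARE+/- and ARE-/- uteri lay outside the range of all ovaries, and only WT uteri overlapped it. Between the tissues Gm29216 was lower in ovary, at -0.41 (SE 0.16, adjusted p = 0.048, edgeR quasi-likelihood test), beside -0.05 for mt-Co1. The part of read position in the differences between the tissues was not tested.

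Whether the genotype effect differed between the tissues was tested in a fit over all 18 libraries and 26682 genes. For ARE-/- against WT, the effect in ovary minus that in uterus was negative for all 37 genes, with a median of -0.91, but 0 passed the edgeR quasi-likelihood test (lowest adjusted p 0.12), 21 had an unadjusted p under 0.05, where 14.1% of all genes did, DESeq2 called 4, and 0.169% of all genes passed. The class medians of this difference were -0.58 for protein genes, -0.85 for rRNA genes and -1.31 for tRNA genes. For ARE+/- against WT, 30 of 37 were negative, 0 passed by edgeR or DESeq2, 4 had an unadjusted p under 0.05, where 8.92% of all genes did, and 0.00375% of all genes passed. The genotype effect in ovary was therefore not shown to differ from that in uterus.

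Between the tissues, with the mean of the 3 genotypes in each, 17 of the 37 genes differed: 15 were lower and 2 higher in ovary than in uterus, where 21.8% of all genes tested were lower and 21.4% higher. The share called among the 37 was close to that of all genes, 43.2% in either direction. With the replicate block 11 of the 37 were called, 10 of them among the 17. The protein genes split: mt-Nd3 (log2 fold change -1.08, SE 0.23, adjusted p = 0.0011), mt-Nd6 (-0.59, SE 0.15, adjusted p = 0.0046), mt-Co3 (-0.41, SE 0.13, adjusted p = 0.015), mt-Co2 (-0.40, SE 0.13, adjusted p = 0.018) and mt-Atp6 (-0.33, SE 0.10, adjusted p = 0.015) were lower in ovary. mt-Nd4l was higher there, at 0.36 (SE 0.10, adjusted p = 0.0074). The other 7, mt-Nd1, mt-Nd2, mt-Co1, mt-Atp8, mt-Nd4, mt-Nd5 and mt-Cytb, lay between -0.16 and 0.10 and did not pass. Over the 3 genotypes the class took 3.44 ± 0.542% of counts in ovary and 3.47 ± 0.439% in uterus (SD, n = 9 each). By genotype it was 2.92 ± 0.271% in ovary and 3.6 ± 0.788% in uterus of ARE-/-, with overlap (SD, n = 3 each). In ARE+/- it was 3.36 ± 0.154% in ovary and 3.47 ± 0.0739% in uterus, also with overlap. In WT it was 4.05 ± 0.327% in ovary and 3.36 ± 0.313% in uterus, without overlap. The uterine ARE-/- mean includes replicate 1 at 4.46%, and whether these differences depend on genotype was not tested on the shares.

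mt-Nd3 ranged from 118.1 to 271.2 CPM in ovary, with a median of 155.1, and from 193.6 to 910.1 CPM in uterus, with a median of 317.5. The WT ovaries lay within the uterine range. mt-Nd4l ranged from 467.4 to 932.6 CPM in ovary (median 682.6) and from 356.7 to 807.2 CPM in uterus (median 513.1). Without the uterine ARE-/- replicate 1 the log2 fold change of mt-Nd3 was -0.75 (adjusted p = 9.8e-06) and that of mt-Nd6 was -0.40 (adjusted p = 0.00053), with 16 genes called. Single genotypes were compared within the fit over all 18 libraries, which share its scaling and estimate of the spread. In WT 1 of the 37 genes passed where 25.2% of all genes did. In ARE+/- 6 passed where 21.1% did, and in ARE-/- 16 passed where 16.7% did. The test of whether the tissue difference depended on genotype is the interaction above, with 0 calls by edgeR and, for ARE-/-, 4 by DESeq2. mt-Nd3 had a log2 fold change of -1.75 in ARE-/-, -1.10 in ARE+/- and -0.40 in WT libraries, with adjusted p of 0.0075, 0.056 and 0.50.

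Of the 22 tRNA genes, 10 were lower and 1 higher in ovary. mt-Tp had 12.57 to 17.11 CPM in ovary (median 14.57) and 18.61 to 43.78 CPM in uterus (median 24.45). It was the only gene of the 37 whose tissues did not overlap, where 3.18% of all genes were separated in this direction. Its log2 fold change was -0.84 (SE 0.12, adjusted p = 4.1e-05), and it was also the gene that passed within WT (-0.75, adjusted p = 0.015). mt-Th (-1.58, SE 0.25, adjusted p = 9.8e-05), mt-Ts2 (-1.46, SE 0.24, adjusted p = 0.00014) and mt-Tl2 (-1.03, SE 0.22, adjusted p = 0.0014) were lower in ovary. Within single genotypes mt-Th had -2.69 (adjusted p = 0.00094) in ARE-/-, -1.71 (adjusted p = 0.011) in ARE+/- and -0.35 (adjusted p = 0.61) in WT. mt-Ts1 had 309.6 to 557.2 CPM in ovary and 446.4 to 1889 CPM in uterus (log2 fold change -1, SE 0.19, adjusted p = 0.00044). As strand was not used, its counts can include reads of the overlapping end of mt-Co1, and how many was not measured. The copy that matches this end, Gm29216, had -0.41 between the tissues. mt-Te had -0.89 (SE 0.19, adjusted p = 0.0012). mt-Tr (-0.98, SE 0.23, adjusted p = 0.0029), mt-Tt (-0.94, SE 0.29, adjusted p = 0.015), mt-Tg (-0.82, SE 0.25, adjusted p = 0.015) and mt-Tk (-0.67, SE 0.24, adjusted p = 0.032) were lower in ovary at levels of a few CPM, and the call of mt-Tk was lost under 16 of 31 alternatives. mt-Tl1 was higher in ovary by 0.33 (SE 0.13, adjusted p = 0.049), a call lost under 20 of 31 alternatives. mt-Tc and mt-Tn, also among the most abundant in uterus, had -0.04 (SE 0.19, adjusted p = 0.88) and -0.05 (SE 0.20, adjusted p = 0.87). The rRNA genes gave no call, with -0.30 (SE 0.13, adjusted p = 0.084) for mt-Rnr1 and 0.12 (SE 0.15, adjusted p = 0.55) for mt-Rnr2.

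**Figure D5:**
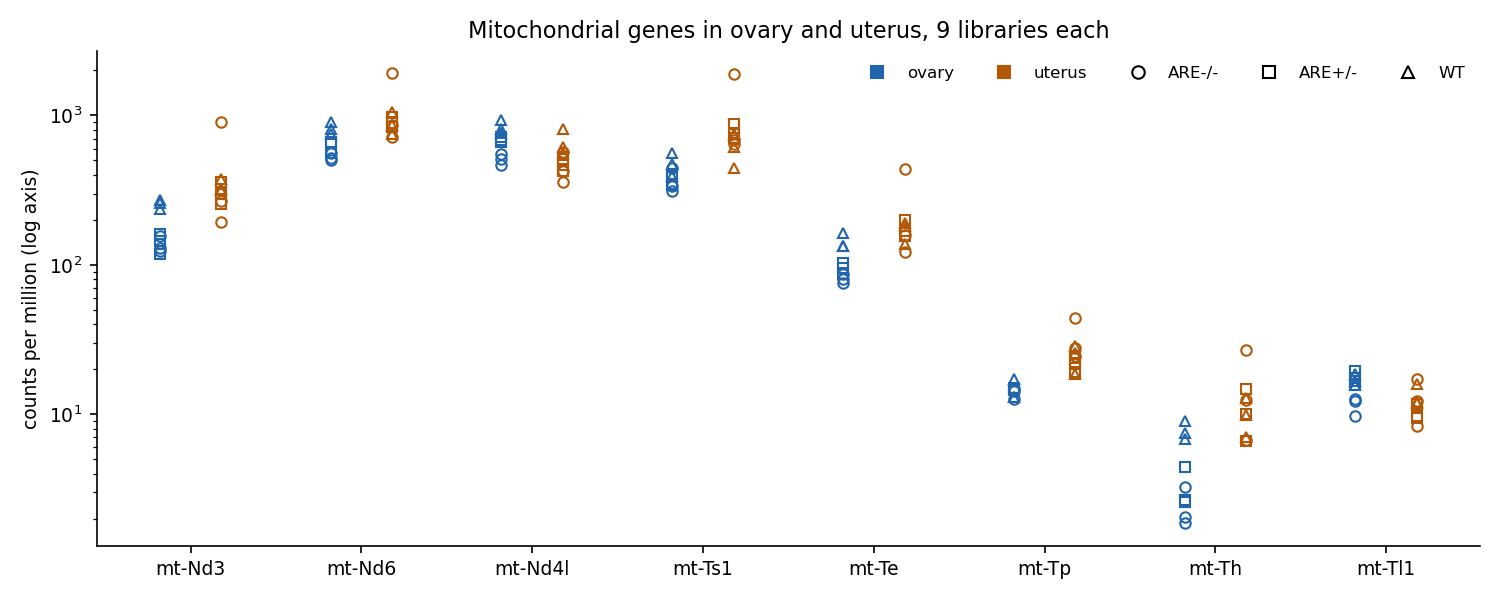
CPM on a log axis for 8 mitochondrial genes in the 9 ovary (left) and 9 uterus libraries (right) of each gene, with symbols for genotype. mt-Tp lies at 12.57 to 17.11 CPM in ovary and at 18.61 to 43.78 CPM in uterus without overlap, and the WT ovaries lie nearest to the uteri for mt-Nd3 and mt-Th.

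The make-up of the mitochondrial transcripts was also compared after centring the log2 counts of the 13 protein and 2 rRNA genes on their mean in each library. This removes a factor common to all 15 genes, but not every difference in their sum. mt-Nd6 was the only one of the 15 whose tissues did not overlap, at -0.95 ± 0.09 in ovary and -0.58 ± 0.19 in uterus on this log2 scale (SD, n = 9 each). How often other genes were apart after such centring was not measured. In CPM the tissues overlapped for mt-Nd6, at 499.2 to 902.2 in ovary and 714.4 to 1916 in uterus. mt-Nd3 had the largest difference, with -2.89 ± 0.25 in ovary and -2.09 ± 0.41 in uterus, and mt-Nd4l the largest in the other direction, with -0.91 ± 0.16 in ovary and -1.46 ± 0.47 in uterus. The 12 others differed by at most 0.31.

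The authors' deposited table holds an adjusted p per gene and tissue from a likelihood ratio test, without direction. In the authors' deposited table for ovary, 16 mitochondrial genes had an adjusted p under 0.05, where 12.1% of all genes with a value did. The lowest in the authors' deposited table were mt-Nd3 at 5.3e-09, mt-Te at 2.1e-08, mt-Nd5 at 1.8e-07 and mt-Th at 7.7e-07. In the authors' deposited table for uterus 0 mitochondrial genes were under 0.05, where 7.55% of all genes with a value were. The lowest was 0.13 for mt-Tw.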

How the data were processed

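Gene counts of 18 libraries of total RNA were used as deposited by the authors. Per the file headers, the deposited counts were made with featureCounts 2.0.4 on GENCODE M32 with the options -O, -p and -M, so mates were counted singly and reads matching several genes or places were counted for each. Per the submitters' processing notes, STAR, DESeq2 and mm10 were used. The authors deposited an adjusted p-value per gene and tissue beside them. Identifiers were paired with symbols for 52029 of 57010.

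Counts were tested in edgeR 4.0.16 (R 4.3.3): genes were filtered with filterByExpr, libraries scaled by the trimmed mean of M values, and 1 mean fitted per genotype and tissue with the robust quasi-likelihood test, over the 9 libraries of a tissue or all 18. Benjamini-Hochberg adjustment covered all genes tested (threshold 0.05). The script was tested on simulated data. The biological coefficient of variation was 0.281 in ovary and 0.411 in uterus. P-values measure the spread between the numbered samples of a group, which may be technical, since the labels do not tie each sample to 1 mouse. Levels are CPM on the scaled library size of the tissue, or of all 18 libraries between tissues. Replicates of a group differed by more than sampling noise. Nuclear copies were found with blastn 2.17.0 against GENCODE M21 transcripts. All protein and rRNA genes, the 5 most abundant tRNAs per tissue, tRNAs that passed and up to 3 genes per nuclear list were named. Members and lists were chosen with earlier results of these data known. Alternatives were DESeq2 1.42.0, other scalings and filters, halved counts, a replicate block, fewer groups, and leaving out libraries.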

Additional observations from a re-analysis of the deposited data

How the results depend on the processing

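The 15 calls in ovary ARE-/- against WT became 3 with the replicate block and 8 to 17 when 1 library was left out, all of them lower in ARE-/-. The 2 calls in ovary ARE+/- against WT became 9 with DESeq2, 5 with no filter on low counts, 5 without the 2 backup libraries, 6 with only the 2 groups compared, 0 with the replicate block, and 0 to 5 when 1 library was left out. Whether the replicate numbers pair samples is not given. Same-numbered libraries had correlations of their deviations of -0.04 to 0.5 in uterus, -0.4 to 0.05 in ovary and -0.01 to 0.3 across tissues. All 3 pairs exceeded 0.1 in uterus ARE-/- with ARE+/- (0 calls with and without the block) and in WT ovary with WT uterus, where the block, added after seeing the data, gave 2 calls, mt-Tp and 1 gene higher in ovary. DESeq2 called 1 gene in ovary ARE-/- against ARE+/- and 4 for the ARE-/- effect in ovary minus uterus, where edgeR called 0. Ovary against uterus gave 17 calls, and 11 with the replicate block. Within single genotypes of the fit over all 18 libraries it gave 1 in WT and 6 in ARE+/-. There mt-Tl1 turned to -0.13 in ARE-/- and mt-Atp6 to 0.06 in WT. The rRNA values in ovary ARE-/- against WT ranged from -0.31 to 0.08 for mt-Rnr1 and from -0.40 to 0.12 for mt-Rnr2 when 1 library was left out. Without ARE-/- replicate 6, the backup library of the ovary, mt-Rnr2 was 0.02. In the make-up of 15 genes, 1 gene was apart between tissues, 2 with the 13 protein genes only, and 1 to 2 when 1 library was left out. The cause of these changes was not tested. Leaving out the 7 nuclear copies, chosen after seeing the data, gave 17 calls between the tissues, as in the full fit. Uterus gave 0 calls in each of 3 comparisons under all alternatives run. When 1 library was left out, differences in the protein share kept their sign in ovary but not between the tissues (-0.149 to 0.0925 points for ovary against uterus) or in uterus, where they were -0.183 to 0.593 points for ARE-/- against WT, -0.295 to 0.482 for ARE-/- against ARE+/- and -0.0637 to 0.238 for ARE+/- against WT. Genes with few counts, such as mt-Tf with 1 to 17 counts in a library, allow no statement at this depth.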
